A study of Mus musculus with 48 samples.

Results

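The 9 transcription factors of neural progenitors and of the oligodendrocyte lineage, Sox2, Sox4, Sox6, Sox9, Sox10, Sox11, Olig1, Olig2 and Tcf4, were measured in mouse glioblastoma at single-cell resolution. They were looked up by symbol, and all 9 were found among the 20300 gene symbols of the whole-tumor count table. Their levels were compared between tumor cells inside and outside the cell cycle, oligodendrocytes and host cells, and between tumors with and without a knockdown of P-selectin.

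The tumors grew from GL261 cells, a mouse glioblastoma line, implanted in the striatum of C57BL/6 mice, all male and 6 weeks old at implantation. In the shSELP group the implanted cells carried shRNA against P-selectin, the adhesion molecule encoded by Selp, and in the shNC group a negative control shRNA. The hosts were not engineered, so their own cells kept Selp. Tumors were taken on day 16 after inoculation by the labels, and a day later by the methods. CD11b+ cells, the remaining CD45+ cells and all other cells, with the cancer cells among them, were pooled from 3 brains of a group and mixed in equal amounts, so shares of cells describe that mixture and not the tumor. Each group had 2 libraries; whether these came from separate pools was not stated, and p-values measure only the spread between libraries.

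The table held 9172 cells, of which 8726 passed the filters of at least 500 genes and at most 10% mitochondrial UMIs (unique molecular identifiers, each standing for 1 captured RNA molecule). Cells numbered 2289 and 2297 in shNC, and 2293 in each shSELP library. All UMIs of a library came to 22945972 and 22626413 in shNC, and to 17398121 and 25589350 in shSELP. The median cell held 9015 and 7579 UMIs in shNC, and 5887 and 9388 in shSELP. Of the cell barcodes, 5 were found in more than 1 library. Levels below are UMIs per 1000000 UMIs of a class of cells in a library (CPM), listed as shNC 1, shNC 2, shSELP 1 and shSELP 2, and means are given ± SD over these 4 libraries unless another n is stated. UMIs were counted near the 3′ end of transcripts, and levels are not compared between genes.

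As background, SOX proteins bind DNA through a shared high-mobility-group domain, and the subgroups have different partners and roles. Sox2 maintains neural stem cells, Sox4 and Sox11 act in early neuronal and glial precursors, Sox6 restrains maturation of oligodendrocyte precursors, Sox9 starts gliogenesis and persists in astrocytes, and Sox10 is kept throughout the oligodendrocyte lineage. Olig1 and Olig2 are basic helix-loop-helix factors of that lineage, and Tcf4 encodes an E protein, a broadly expressed partner with which such factors pair.

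The targeted gene, Selp, was almost unread in tumor cells of either group. Over all kept cells it had 17, 25, 21 and 21 UMIs, or 0.743, 1.11, 1.21 and 0.823 CPM, and the groups overlapped. In tumor cells outside the cell cycle it had 1, 0, 0 and 1 UMIs, where a floor of 3 UMIs corresponds to 0.839, 1.09, 4.71 and 8.03 CPM. In cycling tumor cells it had 0, 1, 0 and 0 UMIs with floors of 2.40, 3.90, 7.99 and 4.61 CPM. The knockdown could therefore not be read in the cells that carried the shRNA. Of the 84 Selp UMIs 42 came from endothelial-like host cells, with 8, 12, 15 and 7 UMIs or 60.2, 57.7, 8.98 and 14.2 CPM. Both shSELP levels were thus lower in this class of 22, 32, 353 and 78 cells, and this was not tested.

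Cells were clustered with the 9 genes taken out of the variable genes, of which 8 had been among them. A cluster was called tumor where at least 4 of 6 gate genes (H19, Prph, Col9a2, Matn2, Ptprz1 and Bcan) were at least 5 times as high as in all other cells. A cluster of 474 cells passed with 6 of 6 genes and is called tumor cells outside the cell cycle; it had 231, 166, 44 and 33 cells, or 10.6, 7.62, 2.01 and 1.52% of the library. A cluster of 449 cells with high Mki67 and Top2a reached 3 of 6 against all other cells and 6 of 6 once the first cluster was left out of the comparison. It was accepted as cycling tumor cells by that amendment, chosen after seeing the data, and had 121, 115, 63 and 150 cells. Because gate and clustering defined these classes, the gate genes are not results, and levels are compared between classes as a description with no test.

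Depth differed between the classes and the groups. Tumor cells outside the cell cycle had a median of 15832, 17213, 13162 and 10873 UMIs. Cycling tumor cells had 9247, 2452, 2204 and 1970, and most of them were shallow. A deeper part of 150 cycling cells had a median of 14590.5 UMIs and 2.13% mitochondrial UMIs, against 1450 UMIs and 0.114% in a shallow part of 298 cells. The shallow part, with 57, 77, 52 and 112 cells, did not meet the rule for cycling (Mki67 and Top2a both more than 2 times as high as over all cells) when clustered on its own, and was led by Csn3, Cst6, Akr1b8 and Cdkn2a. The name of cycling tumor cells thus holds for the class as a whole and not for each of its cells. In the deeper part the medians were 17127.5, 16694.5, 18568.5 and 5705 UMIs, so it was not as deep in shSELP 2. A host cluster of 188 cells led by Prl, Gh, Ttr and Ptgds was divided after seeing the data into 55 oligodendrocyte-like cells (5, 21, 13 and 16 by library), 59 astrocyte-like cells and 74 ependymal or choroid plexus-like cells. The astrocyte-like cells were led by Prl, Gh, Fabp7 and Nnat, with Gfap as the 1 astrocyte marker among the leading 10 genes, and 7 of the 59 passed the tumor gate cell by cell. Whether they are a mixture was not tested. The remaining 7615 host cells formed 10 further classes, to give 15 classes in all.

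In tumor cells outside the cell cycle, 7 of the 9 genes stood far above the other host cells and Sox9 was not read. The ratio of mean levels over the 7615 other host cells was 138 for Sox2, 25.5 for Sox4, 140 for Sox6, 85.1 for Sox10, 26.6 for Sox11, 68.5 for Olig1 and 45.5 for Olig2. Each of these 7 was at least 5 times as high under every setting tried. The level of Sox11 rested on the shNC libraries, with 31.3, 12, 1.57 and 0 CPM, and its mean went from 11.2 to 4.51 CPM without shNC 1. Tcf4 was 2.42 times as high, since host cells also carried it at 142 CPM on average. Sox9, with 0 UMIs in 474 cells, was not detectable at this depth, against its label as a factor of these cells.

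Sox2, the stem cell factor, was read mainly in 4 classes. It averaged 246 ± 53.2 CPM in oligodendrocyte-like cells, 245 ± 136 in astrocyte-like cells, 178 ± 58.9 in tumor cells outside the cell cycle and 117 ± 72.1 in cycling tumor cells. No class differed from the next by more than the larger of the 2 SDs, but the first and the last of the 4 did. Below them ependymal or choroid plexus-like cells had 25.4 ± 5.13 CPM (n = 3 libraries with at least 5 cells), and every other class was at or under 2.87 CPM.

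Sox4 and Sox11 belong to 1 subgroup of SOX factors but were not read in the same number of cells. Sox4 averaged 584 ± 348 CPM in astrocyte-like cells and 439 ± 89.5 in tumor cells outside the cell cycle, followed beyond that spread by 309 ± 57.3 in cycling tumor cells. Oligodendrocyte-like cells came next at 287 ± 254, with 136, 598, 31.1 and 383 by library, and endothelial-like cells had 95.6 ± 42.2. Leukocyte classes lay between 2.96 CPM in NK-like and 21.9 CPM in microglia-like cells. Sox11 averaged 237 ± 254 CPM in astrocyte-like, 118 ± 168 in oligodendrocyte-like, 31.3 ± 37.8 in cycling tumor and 11.2 ± 14.4 in other tumor cells, and these neighbors did not differ beyond their spread. In oligodendrocyte-like cells Sox11 was at 0, 356, 0 and 117 CPM, so 2 libraries carried it.

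Sox6, which restrains oligodendrocyte maturation, separated the tumor cells from the oligodendrocyte-like cells. It averaged 170 ± 38.1 CPM in tumor cells outside the cell cycle, 118 ± 78.7 in astrocyte-like cells and 87.6 ± 57.3 in cycling tumor cells. The oligodendrocyte-like class followed beyond that spread at 17.0 ± 34.0 CPM, all of it from 3 UMIs in 1 of 55 cells. Mural-like, ependymal or choroid plexus-like and fibroblast-like cells had 10.9 to 12.7 CPM, and neutrophil-like cells 2.70 ± 1.4.

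The SoxE factors Sox9 and Sox10 were both read in the astrocyte-like class, and their other leading classes differed. Whether the same cells of that class carried both was not tested. Sox9 averaged 457 ± 55.9 CPM in ependymal or choroid plexus-like cells (n = 3), 350 ± 236 in astrocyte-like cells and 111 ± 9.70 in fibroblast-like cells (n = 2). In cycling tumor cells it had 0, 0, 1 and 1 UMIs, and in oligodendrocyte-like cells 8 UMIs, all in 1 cell. Sox10 averaged 217 ± 47.0 CPM in tumor cells outside the cell cycle, 204 ± 19.8 in oligodendrocyte-like cells, 164 ± 67.4 in cycling tumor cells and 127 ± 111 in astrocyte-like cells, with no neighbors apart beyond their spread. The next class, ependymal or choroid plexus-like cells, had 7.93 ± 6.91 CPM.

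Olig1 and Olig2, the helix-loop-helix factors that specify and mature oligodendrocytes, shared the same 4 leading classes. Olig1 averaged 410 ± 433 CPM in astrocyte-like, 331 ± 104 in oligodendrocyte-like, 270 ± 143 in tumor cells outside the cell cycle and 269 ± 160 in cycling tumor cells. In astrocyte-like cells its level ran from 14.0 CPM in shNC 1 to 1018 CPM in shNC 2. Olig2 averaged 157 ± 33.8 CPM in oligodendrocyte-like, 115 ± 102 in astrocyte-like, 103 ± 68.2 in cycling tumor and 68.5 ± 43.7 in other tumor cells. Neighbors among these 4 did not differ beyond their spread for either gene. The other 11 classes were at or under 7.20 CPM for Olig1 and 3.01 CPM for Olig2.

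Tcf4, the E protein, followed another order, with vascular and stromal cells first. Endothelial-like cells averaged 984 ± 203 CPM. Beyond that spread came fibroblast-like (697 ± 232, n = 2), astrocyte-like (648 ± 267), mural-like (639 ± 162), plasma-like (532 ± 168) and oligodendrocyte-like cells (531 ± 82.6), none apart from its neighbor. Tumor cells outside the cell cycle had 343 ± 65.4 CPM, beyond the spread from the classes on either side. Dendritic-like, microglia-like and cycling tumor cells had 177 ± 14.8, 164 ± 17.0 and 158 ± 100 CPM, and T-like cells were lowest at 14.7 ± 3.63. The plasma-like class of 156 cells was a mixture. At the finer resolution of 1.2 it divided into 119 plasma-like and 37 plasmacytoid dendritic-like cells. Its Tcf4 level is that of the mixture and is not given for each part.

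**Figure D1:**
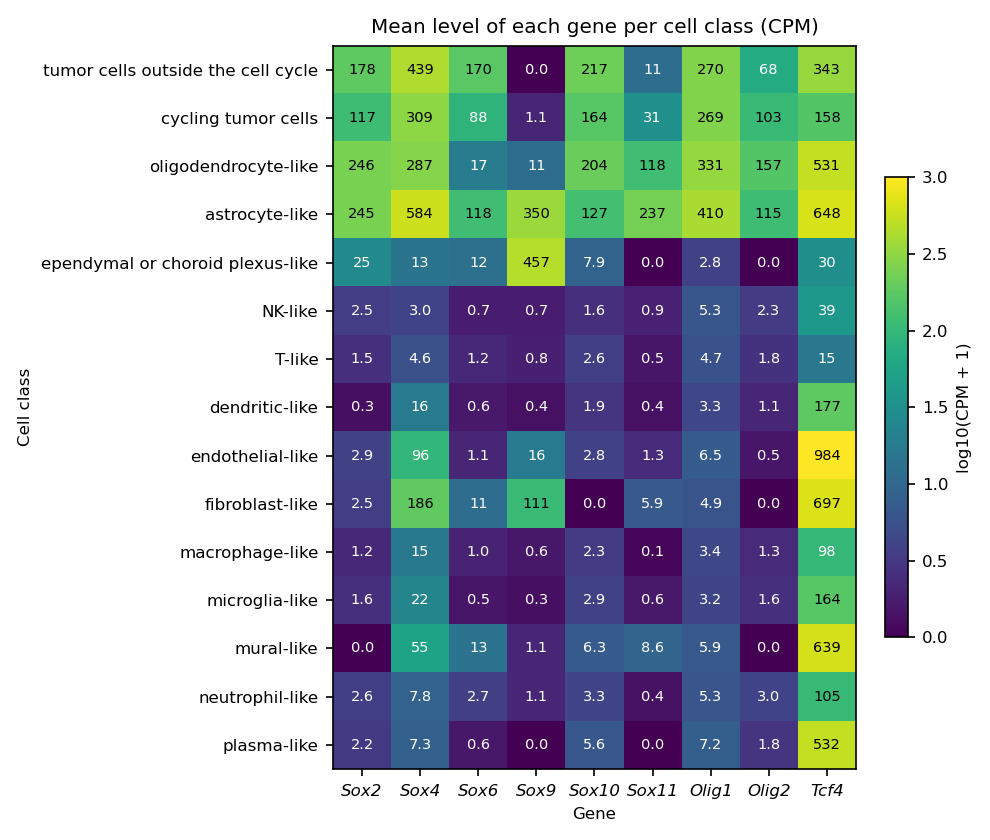
Mean level of each of the 9 genes (horizontal axis) in the 15 classes of cells (vertical axis), in CPM with colors for log10(CPM + 1), averaged over libraries with at least 5 cells. Sox2, Sox10, Olig1 and Olig2 share tumor, oligodendrocyte-like and astrocyte-like cells, Sox9 is read in ependymal or choroid plexus-like and astrocyte-like cells, and Tcf4 is highest in endothelial-like cells at 984 CPM.

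The profiles over the 15 classes were compared by Pearson's r of log2(mean CPM + 10), as a description over classes that share libraries. Olig1 and Olig2 had r = 0.990, Sox10 had 0.982 with Olig1 and 0.974 with Olig2, and Sox2 had 0.970 with Sox10. Sox9 had between 0.105 and 0.380 with the other 8, and Tcf4 between 0.105 and 0.642, the highest with Sox4. Among 11125 other genes of at least 20 CPM in some class, S100b, a calcium-binding protein of glia, was most like Sox10 (0.994), Olig1 (0.991) and Olig2 (0.986). Scrn1 was most like Sox2 (0.983), ahead of S100b (0.979) and Fbxo2 (0.978), and Rhobtb3 most like Sox4 (0.982), ahead of Mex3d (0.955) and Mras (0.952). Sox6 was nearest to Plagl1 (0.962), Chadl (0.960) and Bex4 (0.958), Sox11 to Wasf1 (0.971), Brinp3 (0.964) and Cbs (0.954), and Tcf4 to Ash1l (0.863), Lifr (0.856) and Ccdc88a (0.849). After S100b came Gjc3 (0.982) and Aldh1l2 (0.980) for Sox10, Pcdh10 (0.986) and Pak3 (0.978) for Olig1, and Pcdh10 (0.985) and Pantr1 (0.980) for Olig2.

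The same genes were counted cell by cell after each cell was thinned to 2000 UMIs. In tumor cells outside the cell cycle this left out 17 of 474 cells, and in neutrophil-like cells, taken for comparison, 45 of 497. Median depths before thinning were 16114.5 and 5812 UMIs. At least 1 of the 9 genes was read in 93.2% of these tumor cells (99.4% unthinned) and in 20.6% of neutrophil-like cells (42.5% unthinned), where Tcf4 alone was read in 16.4%. Neutrophil-like cells had Tcf4 at 105 ± 21.8 CPM, so they are no blank for this gene.

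Sox4, the SoxC factor, had a UMI in the largest share of thinned tumor cells outside the cell cycle, 53.0% (91.6% unthinned), against 1.33% of neutrophil-like cells. Tcf4 was read in 42.5% (91.4% unthinned) against 16.4%, and Olig1 in 38.1% (66.7% unthinned) against 1.11%. Sox2 had 34.1% (77.4% unthinned) against 0.442%, Sox10 32.6% (84.6% unthinned) against 0.442%, and Sox6 30.9% (78.5% unthinned) against 1.11%. Olig2 had 14.9% (50% unthinned) against 0.442%, and Sox11 3.72% (11.2% unthinned) against 0.221%, so all of these 8 shares lay above the neutrophil-like one. Sox9 had 0 of 457 cells, which allows a share of cells with a UMI of up to 0.656% and does not limit expression, against 0.221%.

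In the deeper part of the cycling tumor cells, with 1 of 150 cells left out, Olig2 was read in 24.2% of thinned cells (56.7% unthinned), Sox2 in 23.5% (70.7%) and Sox6 in 18.1% (58.7%). The median depth before thinning was 14590.5 UMIs. In the 55 oligodendrocyte-like cells, none left out and with a median of 10250 UMIs, Tcf4 was read in 63.6% (90.9% unthinned), Olig1 in 45.5% (74.5%), Sox10 in 32.7% (72.7%) and Sox6 in 1.82% (1.82%). Neutrophil-like shares are those given above.

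**Figure D2:**
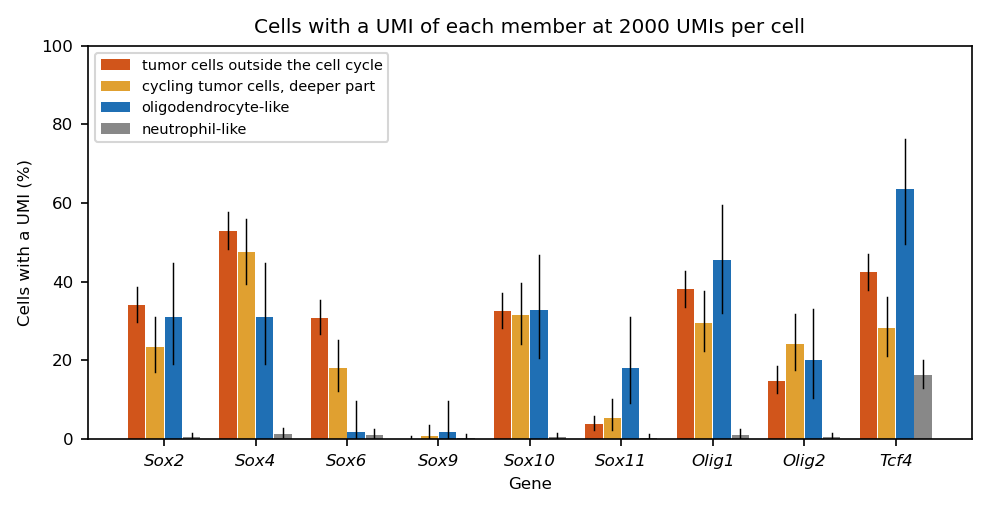
Share of cells with at least 1 UMI of each gene (percent, after thinning to 2000 UMIs per cell) with exact 95% binomial intervals, which cover counting error only, in tumor cells outside the cell cycle, the deeper cycling tumor cells, oligodendrocyte-like and neutrophil-like cells. Sox6 is read in 30.9% of tumor cells outside the cell cycle and 1.82% of oligodendrocyte-like cells, and Sox9 in 0 of 457 tumor cells outside the cell cycle.

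Several of the factors were read together in single tumor cells. After thinning, at least 3 of the 9 were read in 52.9, 47.2, 25 and 34.5% of tumor cells outside the cell cycle by library (97.8, 97.0, 93.2 and 75.8% unthinned), which left out 4, 5, 4 and 4 cells. The mean number per thinned cell was 2.75, 2.43, 1.73 and 1.97, lower in both shSELP libraries. In the deeper cycling cells the share with at least 3 was 50.8, 39.5, 20 and 5.26% (98.4, 94.7, 100 and 34.2% unthinned), and in neutrophil-like cells 0% (0.402% unthinned). Olig2 was read in 67.4% of the 316 tumor cells with Olig1 and in 15.2% of those without it, in unthinned cells with medians of 16609.5 and 14341 UMIs. Olig2 was also read in 57.5% of cells with Sox6 and 22.5% of cells without, at medians of 16442.5 and 13793 UMIs. Cells with a gene were thus somewhat deeper, and the part of depth in these shares was not tested.

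Within each library, cycling tumor cells were set against tumor cells outside the cell cycle as log2 ratios of CPM + 1. Sox6 had -0.46, -0.66, -1.21 and -2.37, and Tcf4 -0.25, -1.13, -1.39 and -2.43, lower in cycling cells in 4 of 4 libraries. In the deeper part alone Sox6 was again lower in 4 of 4, and Tcf4 in 3 of 4, with no difference in shNC 1 (-0.0018). Sox4 had -0.49, -0.52, -0.26 and -0.73, lower in 4 of 4, but in the deeper part it was higher in shSELP 1 at 0.50. Sox2 was lower in 4 of 4 as well, and in the deeper part in 3 of 4 with shSELP 1 at 0.37. Olig2 was higher in cycling cells in 3 of 4 libraries at 0.42, 1.07 and 0.61, with -0.40 in shSELP 2, and Sox11 was higher in 3 of 4. Olig1 was higher in 2 of 4, and Sox10 lower in 3 of 4 but in 2 of 4 in the deeper part. Within the cycling class the shallow part was lower than the deeper part in 4 of 4 libraries for Sox4, Sox6, Sox10 and Tcf4.

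Against oligodendrocyte-like cells of the same library, tumor cells outside the cell cycle had lower Sox2 in 4 of 4 libraries (-0.27, -0.45, -0.74 and -0.54) and lower Olig2 in 4 of 4 (-0.66, -0.85, -1.54 and -2.48). Sox6 was higher in tumor cells in 4 of 4 libraries, at 222, 163, 130 and 163 CPM, where 3 of the 4 oligodendrocyte-like samples had 0 UMIs. Sox10 was lower in 2 of 4 and Tcf4 in 3 of 4. The oligodendrocyte-like values rest on 5 to 21 cells a library.

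The knockdown was compared with the control in tumor cells outside the cell cycle by edgeR's quasi-likelihood test on UMIs summed per library. Of the 9 genes, 8 passed the filter on low counts; Sox9 did not, and Sox11 passed only through the shNC libraries. None of the 8 was called at an adjusted p of 0.05 by edgeR, where 3 of 9543 genes were called in all (0.0314%), and none by DESeq2, which called 10. Sox11 had to be lower in shSELP to pass, so it is left out of the counts that follow. The other 7 estimates were below 0, and 4 of the 7 had an unadjusted p under 0.05, against 763 of all genes (8.0%). The median log2 fold change was -0.55 over the 7 and -0.00 over all genes tested. For 3 of the 7, Sox2, Sox4 and Olig2, both shSELP levels were under both shNC levels, against 15.1% of all genes, and for none were both above, against 25.7% of all genes.

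Olig2, which specifies oligodendrocyte precursors, had 129, 67.8, 50.3 and 26.8 CPM in these cells, from 461, 187, 32 and 10 UMIs. Both shSELP libraries were below both shNC libraries, at a log2 fold change of -1.39 (SE 0.391, edgeR adjusted p = 0.361). Its neighbor Olig1 had 467, 236, 250 and 126 CPM, and the groups overlapped (-0.98, SE 0.377, edgeR adjusted p = 0.503). In shSELP 2 the 47 UMIs of Olig1 came from 7 cells, and 5 cells held 95.7% of them. Without shNC 2 both were called, Olig2 at -1.82 (edgeR adjusted p = 0.000937) and Olig1 at -1.43 (0.0187). Neither was called without shNC 1 (-0.83 and -0.38), without shSELP 2 (-1.04 and -0.56) or without shSELP 1 (-2.07 and -1.67).

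Sox2, the stem cell factor, had 243, 196, 102 and 171 CPM outside the cell cycle, with both shSELP libraries below (-0.83, SE 0.279, edgeR adjusted p = 0.446). Sox4, expressed in early precursors, had 469, 541, 328 and 418 CPM, with both below as well (-0.55, SE 0.250, edgeR adjusted p = 0.607). Sox6 had 222, 163, 130 and 163 CPM and overlapping groups (-0.52, SE 0.263, edgeR adjusted p = 0.664). Sox10, of the oligodendrocyte lineage, had 239, 209, 156 and 265 CPM, and Tcf4, the E protein, 353, 357, 253 and 409 CPM; both overlapped, each with a log2 fold change of -0.23. Without shSELP 1 these 2 estimates turned to 0.0630 for Sox10 and 0.0322 for Tcf4. With cells gated one by one that of Tcf4 was 0.27.

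Sox11, the sparsest of the 8, had 31.3, 12, 1.57 and 0 CPM, from 112, 33, 1 and 0 UMIs. These UMIs lay in 44, 8, 1 and 0 cells, and in shNC 2 5 cells held 90.9% of them. Over the groups 145 of 6331702 UMIs stood against 1 of 1010131. As Sox11 passed the filter through the shNC libraries alone, it had to be lower in shSELP. Its fitted fold change and p-value in these cells are therefore not given.

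The number of called genes in tumor cells outside the cell cycle depended on single libraries: 23 were called without shNC 1, 119 without shNC 2, 2 without shSELP 1 and 0 without shSELP 2.

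**Figure D3:**
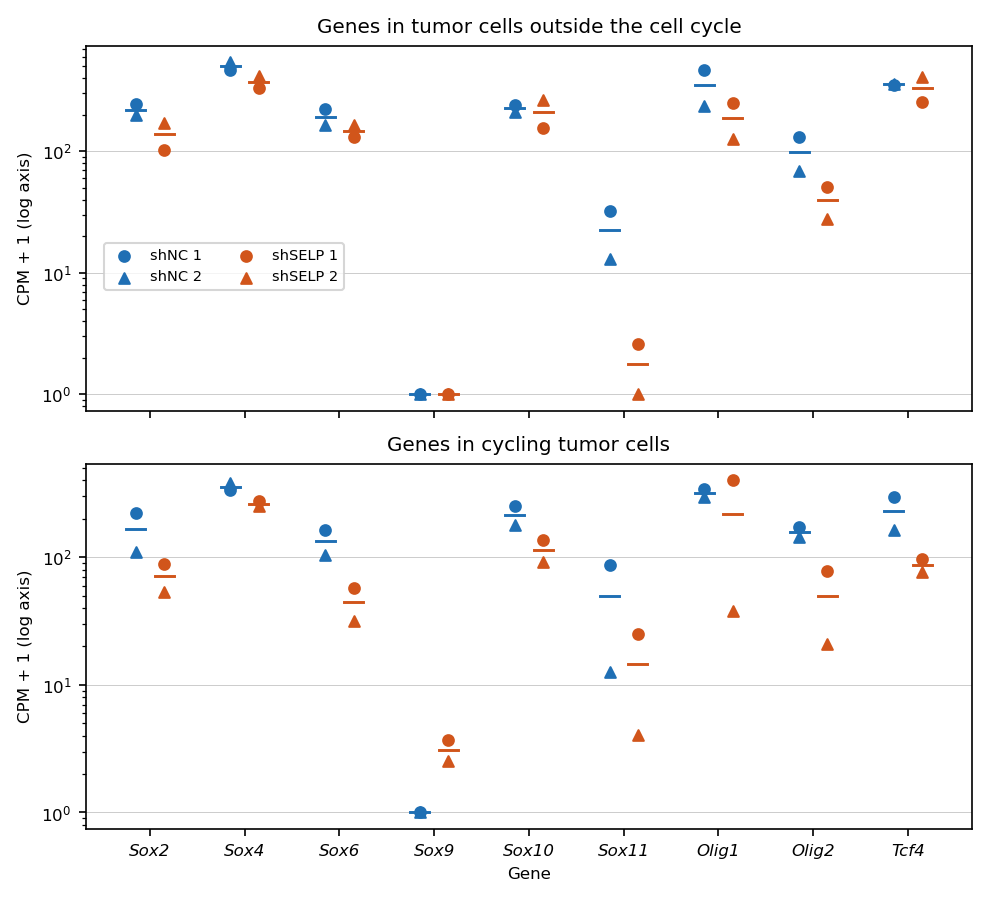
Level of each gene in every library (CPM + 1 on a log axis) in tumor cells outside the cell cycle and in cycling tumor cells; points are libraries and bars are group means. In both classes the shSELP points of Sox2, Sox4 and Olig2 lie under the shNC points, while those of Olig1 overlap.

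In cycling tumor cells the same 8 genes were tested. Each reached the filter level in both shSELP libraries, except Sox11, which reached it in 1 library of each group. By edgeR 0 of the 8 were called, against 40 of 6923 genes (0.578%), 18 higher and 22 lower in shSELP; 6 of the 8 had an unadjusted p under 0.05, against 1658 of all genes (23.9%). DESeq2 called 115 genes, among them Sox6 (DESeq2 adjusted p = 0.0223) and Tcf4 (0.0164). All 8 edgeR estimates were below 0, with a median of -1.35 (-1.27 without Sox11) against -0.02 over all genes. Of the 2 genes by which the class was named, Mki67 had 216, 157, 74.6 and 64.6 CPM, lower in both shSELP libraries too; Top2a had 481, 338, 344 and 329 CPM. The 6 cycling markers, none at 0, summed to 1957, 1918, 1572 and 1708 CPM, and the deeper part was 64 of 121, 38 of 115, 10 of 63 and 38 of 150 cells. Their part in the levels of the 8 genes was not tested. For 6 of 8 both shSELP levels were under both shNC levels, against 31.7% of all genes tested, and for none were both above, against 22.9% of all genes. Called genes numbered 2 without shNC 1, 0 without shNC 2, 148 without shSELP 1 and 1 without shSELP 2.

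Sox6 had 161, 103, 56.0 and 30.7 CPM in cycling tumor cells, with the groups apart (-1.66, SE 0.361, edgeR adjusted p = 0.0701). Tcf4 had 297, 163, 95.9 and 75.3 CPM (-1.43, SE 0.328, edgeR adjusted p = 0.0727), and Olig2 172, 143, 77.3 and 20 CPM (-1.81, SE 0.449, edgeR adjusted p = 0.0727). For all 3 both shSELP libraries were below both shNC libraries. Sox2 had 220, 109, 87.9 and 52.3 CPM (-1.27, SE 0.387, edgeR adjusted p = 0.104), Sox10 249, 178, 136 and 90.7 CPM (-0.92, SE 0.278, edgeR adjusted p = 0.103), and Sox4 333, 377, 274 and 251 CPM (-0.40, SE 0.191, edgeR adjusted p = 0.240). These 3 also had both shSELP libraries below. Without shSELP 1, Sox6 was called at -2.05 (edgeR adjusted p = 0.0254) and Olig2 at -2.91 (0.00633). Without shSELP 2 the estimates were weaker and not called, at -1.18 for Sox6, -1.21 for Tcf4, -0.96 for Olig2, -0.86 for Sox2 and -0.59 for Sox10. Without shNC 1 they were -1.24, -0.87, -1.64, -0.62 and -0.61, also not called. With cells thinned to 2000 UMIs, Sox2 (-2.28), Sox6 (-2.45), Olig2 (-2.44) and Tcf4 (-2.33) were called by edgeR, with adjusted p of 0.0225, 0.0187, 0.00850 and 0.00905. In that fit the count of called genes over all genes rose too, as given with the processing. Of the 449 cycling cells, 192 did not hold 2000 UMIs.

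The other 2 genes of the 8 depended on single libraries in cycling cells. Olig1 had 344, 294, 400 and 36.9 CPM, so that shSELP 1 was the highest library and shSELP 2 the lowest (-0.60, SE 0.685, edgeR adjusted p = 0.629). Without shSELP 2 its estimate was 0.39, and without shSELP 1 it was -3.05 and called (edgeR adjusted p = 0.00161). Sox11 had 86.5, 11.7, 24.0 and 3.07 CPM from 108, 9, 9 and 2 UMIs (-2.19, SE 0.972, edgeR adjusted p = 0.206), and without shNC 1 its estimate was 0.06.

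In the 150 deeper cycling cells, with 64, 38, 10 and 38 by library, Sox6 (188, 114, 58.3 and 36.7 CPM), Olig2 (202, 143, 90.1 and 12.2 CPM) and Tcf4 (353, 177, 143 and 97.8 CPM) still had both shSELP libraries below both shNC libraries. Sox2 (227, 124, 132 and 52 CPM), Sox4 (369, 435, 466 and 342 CPM) and Sox10 (281, 188, 196 and 91.7 CPM) overlapped there. In the whole cycling class 31.7% of all genes tested had both shSELP libraries below, a share not given here for the deeper cells. This subset, chosen after seeing the data, is also the cycling class at resolution 1.2, where edgeR called no gene. Its median depth of 5705 UMIs in shSELP 2 was the lowest of the 4 libraries. Its 6 cycling markers summed to 2142, 2041, 2268 and 2164 CPM, led by Top2a. The library shSELP 2 stood apart in it, with 36.7 CPM of Olig1 against 375, 256 and 599 CPM in the others, and 67.3 CPM of the gate gene H19.

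Taking all 923 tumor cells as 1 class, 0 of 8 genes were called by edgeR, against 5 of 10140 genes (0.0493%), while 7 of the 8 had an unadjusted p under 0.05, against 1986 of all genes (19.6%). DESeq2 called 88 genes, among them Sox2 (DESeq2 adjusted p = 0.00951) and Olig2 (0.0353). All 8 estimates were below 0 with a median of -0.94 (-0.88 without Sox11), against -0.03 over all genes, and 7 of 8 had both shSELP libraries below, against 26.7% of all genes, and none had both above, against 25.9% of all genes. Sox2 had 237, 177, 96.9 and 95.7 CPM (-1.12, SE 0.201, edgeR adjusted p = 0.0753) and Tcf4 339, 314, 195 and 197 CPM (-0.75, SE 0.162, edgeR adjusted p = 0.0853). With cells gated one by one, the log2 fold change of Tcf4 reversed to 0.0578. Sox6 had 206, 150, 103 and 79.1 CPM (-0.99, SE 0.225, edgeR adjusted p = 0.0930), Sox4 434, 506, 308 and 311 CPM (-0.61, edgeR adjusted p = 0.118), and Olig2 140, 84.3, 60.3 and 22.5 CPM (-1.46, edgeR adjusted p = 0.122). In each of these 5 the shSELP libraries were the lower ones. Olig2 was at -0.91 without shSELP 2 and at -2.34 without shSELP 1, and not called in either.

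The calls over all tumor cells turned on the control libraries. Without shNC 1, 338 genes were called by edgeR, among them Sox2 (adjusted p = 0.00479), Sox4 (0.0228), Sox6 (0.0389), Olig2 (0.00507) and Tcf4 (0.0342). Without shNC 2, 1062 genes were called, among them 7 of the 8: Sox2 (-1.36), Sox6 (-1.24), Sox10 (-0.73), Sox11 (-3.0), Olig1 (-1.27), Olig2 (-1.82) and Tcf4 (-0.85), but not Sox4. Without shSELP 1, 8 genes were called, and without shSELP 2, 5. With a library left out, its group rests on the other alone, which is assumed to vary like the rest. This class also mixes cells in different shares: cycling cells were 121 of 352, 115 of 281, 63 of 107 and 150 of 183 tumor cells.

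In oligodendrocyte-like cells, host cells without the shRNA, 7 of the 9 genes passed the filter and 5 of the 7 estimates were below 0. By edgeR 0 of the 7 and 0 of 3010 genes were called (0%), with 1 of the 7 and 148 of all genes at an unadjusted p under 0.05. The count by DESeq2 was also 0. Olig1 had 317, 192, 428 and 388 CPM with both shSELP libraries above both shNC libraries (0.79, SE 0.408, edgeR adjusted p = 0.965). Sox2 had 294, 269, 171 and 250 CPM with both below. Sox10 (226, 210, 179 and 202 CPM) also had both below, Tcf4 (589, 575, 552 and 409 CPM) likewise, and Olig2 (204, 123, 148 and 154 CPM) overlapped. Over all 3010 genes 49.0% of estimates were below 0, and both shSELP libraries were below for 16.0% and above for 16.8%. Called genes numbered 49 without shNC 1, 4 without shNC 2, 5 without shSELP 1 and 0 without shSELP 2.

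In microglia-like cells, where Sox4 and Tcf4 passed the filter, Sox4 rose in shSELP. It had 7.38, 11.7, 32.7 and 35.7 CPM, from 9, 27, 125 and 78 UMIs. Both shSELP libraries were above both shNC libraries, against 28.4% of all genes. The log2 fold change of Sox4 was 1.69 (SE 0.257, edgeR adjusted p = 0.0223). This was 1 of 2 genes tested, against 27 of 8994 genes (0.300%). It was called without each library in turn, at 1.49 to 2.10, and called genes then numbered 198 without shNC 1, 104 without shNC 2, 280 without shSELP 1 and 830 without shSELP 2. DESeq2 called 53 genes in this class. After thinning to 2000 UMIs Sox4 was at 1.0 and not called (edgeR adjusted p = 0.693), and DESeq2 gave it no adjusted p. A UMI of Sox4 was read in 6.17% of thinned microglia-like cells (13.4% unthinned, median 6929 UMIs, 198 of 992 cells left out), against 1.33% of neutrophil-like cells (3.22% unthinned, median 5812 UMIs).

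The microglia-like class was made of 3 clusters in unlike shares, of which 1 had 44, 43, 223 and 76 cells and another 58, 85, 68 and 122. Endothelial-like cells, which carry Sox4 at 95.6 CPM, numbered 22, 32, 353 and 78. The part of either in the rise of Sox4 was not tested. Tcf4 in microglia-like cells had a log2 fold change of 0.16 (SE 0.143, edgeR adjusted p = 0.647).

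In macrophage-like cells 6 of the 9 genes passed the filter, Olig2 only through the shNC libraries. By edgeR 0 of the 6 were called, against 134 of 10844 genes (1.24%); 2 of the 5 without Olig2 and 1710 of all genes were at an unadjusted p under 0.05. The 183 genes called by DESeq2 included Sox4. Of all 10844 genes, 15.3% had both shSELP libraries above both shNC libraries and 32.9% both below. Sox4 had 11.7, 6.47, 19.9 and 23.5 CPM with both shSELP libraries above (1.33, SE 0.253, edgeR adjusted p = 0.0518, DESeq2 adjusted p = 0.00244). Over the alternative fits Sox4 ran from 0.686 to 1.87 on the log2 scale. It was called by edgeR without shNC 1 (1.87, adjusted p = 0.00428), without shNC 2 (0.95, 0.0197) and without shSELP 1 (1.43, 0.0409), and not without shSELP 2 (1.17, 0.178). The class was made of 4 clusters in unlike shares, of 479, 311, 165 and 177 cells, 160, 169, 186 and 362, 131, 159, 76 and 194, and 76, 37, 7 and 7. The part of this mix in the level of Sox4 was not tested. Olig1 had 5.34, 4.85, 1.89 and 1.65 CPM with both shSELP libraries below (-1.48, SE 0.299, edgeR adjusted p = 0.0603). Olig2 had 2.25, 2.37, 0 and 0.750 CPM. Tumor cells, the chief carriers of these 2 genes, were 16.1, 12.9, 4.89 and 8.42% of the libraries, and the part of free tumor RNA in the levels of Olig1 and Olig2 in macrophage-like cells was not tested. The 6 gate genes summed to 29.6, 23.5, 10 and 17.2 CPM there, led by Prph. H19, 1 of these 6 genes, had a log2 fold change of -2.33 there (-2.65 without shSELP 2). It is given as a tumor marker and not as a result. Called genes numbered 89 without shNC 1, 346 without shNC 2, 165 without shSELP 1 and 53 without shSELP 2.

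In T-like cells Sox4, Olig1 and Tcf4 passed the filter. By edgeR 0 of the 3 were called, against 1 of 9744 genes (0.0103%), with 1 of the 3 and 924 of all genes at an unadjusted p under 0.05. None of the 3 was among 15 called by DESeq2. Olig1 had 8.49, 4.52, 2.41 and 3.46 CPM, lower in both shSELP libraries, and Sox4 2.42, 5.09, 5.21 and 5.53 CPM, higher in both. Tcf4 had 13.9, 10.5, 19.3 and 15.2 CPM, also higher in both. Of all 9744 genes, 20.6% had both shSELP libraries below and 20.7% both above. The 6 gate genes summed to 29.1, 28.6, 21.7 and 24.2 CPM in T-like cells, lower in both shSELP libraries. The 9 mural markers summed to 1.82, 3.39, 19.3 and 9.21 CPM, higher in both. The part of free RNA in the levels of the 3 genes was not tested. Called genes numbered 95 without shNC 1, 431 without shNC 2, 58 without shSELP 1 and 111 without shSELP 2.

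Other genes of the same pathways were read from lists, in tumor cells outside the cell cycle, in cycling tumor cells and in all tumor cells in that order. Over all genes tested, 50.3, 51.5 and 52% of estimates were below 0. Of the genes of these lists, 1 was called by edgeR in any of the 3 fits, Id3, in cycling cells. Of 6 E proteins and Id proteins, the latter blocking E proteins by pairing with them, 5 were tested each time and 3 estimates were below 0 (medians -0.38, -0.49 and -0.41). Id3 fell in cycling cells by 1.29 on the log2 scale (SE 0.207, edgeR adjusted p = 0.0489), with 323, 302, 115 and 132 CPM. Its call was lost without each of the 4 libraries in turn: without shNC 1 at -1.20 (edgeR adjusted p = 0.260), without shNC 2 at -1.35 (0.157), without shSELP 1 at -1.18 (0.0646) and without shSELP 2 at -1.38 (0.189).

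Tcf12, an E protein like Tcf4, had 385, 209, 112 and 142 CPM outside the cell cycle, with both shSELP libraries below (-1.36, edgeR adjusted p = 0.219). Over all tumor cells it had a log2 fold change of -1.35 (edgeR adjusted p = 0.0846; DESeq2 adjusted p = 0.00440). With a library left out, Tcf12 ran from -1.78 (without shNC 2) to -0.82 outside the cell cycle. In all tumor cells it ran from -1.75 (without shNC 2) to -0.84 (without shNC 1). Tcf12, Nfib, C1ql1 and Gpr17 are given with folds because their values were seen to be low in shSELP.

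Of 22 other neural progenitor regulators, 18, 12 and 18 were tested and 13, 11 and 15 estimates were below 0 (medians -0.40, -0.50 and -0.58). Nfib, a nuclear factor of glial differentiation, had 107, 62.5, 18.7 and 18.4 CPM in cycling cells (-2.18, edgeR adjusted p = 0.0508) and was called without shSELP 1 at -2.16 (0.0362). Nes, the intermediate filament of neural stem cells, had 154, 235, 204 and 193 CPM outside the cell cycle, and the groups overlapped. Of 13 other Sox genes, 12 were in the table, and 0, 0 and 1 were tested, the last being Sox12 at -1.35. Of 9 proneural and Notch-regulated helix-loop-helix genes, 8 were in the table, 2 were tested each time and 1 was below 0 (medians -0.10, -0.03 and -0.24). Among them Hes1, a Notch target, had 37.8, 64.9, 83.3 and 88.3 CPM outside the cell cycle, both shSELP libraries above. The other gene tested there, Hes6, had both below.

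Genes of mature lineages did not share 1 direction. Of 13 oligodendrocyte differentiation genes, 5, 3 and 6 were tested and 3, 1 and 4 were below 0 (medians -0.50, 0.12 and -0.51). Of the 5 tested outside the cell cycle, 2 estimates were above 0. There 2 genes had both shSELP libraries below, against 15.1% of all genes, and 1 had both above, against 25.7%. Cnp, a myelin enzyme and 1 of the 2 with both below, had 121, 130, 101 and 88.3 CPM. Of 8 oligodendrocyte precursor genes, 4, 2 and 4 were tested and 2, 1 and 3 were below 0 (medians -0.31, -0.54 and -0.88). Outside the cell cycle 2 of the 4 estimates were above 0. There 2 genes had both shSELP libraries below, against 15.1% of all genes, and 1 had both above, against 25.7%. Tnr was at 0.53 there (edgeR adjusted p = 0.919) and at -0.52 in all tumor cells. Gpr17, a receptor of committed precursors, had 51.2, 14.9, 9.43 and 0 CPM outside the cell cycle (-2.62, edgeR adjusted p = 0.427), and C1ql1 had log2 fold changes of -1.14, -1.5 and -1.24. Without shNC 2 Gpr17 was at -3.26 outside the cell cycle and at -3.70 in all tumor cells, and C1ql1 in all tumor cells at -1.5. The weakest estimates with a library left out were -1.90 and -1.65 for Gpr17 in these classes. For C1ql1 in all tumor cells the weakest was -0.92. Of 10 astrocyte genes, 7, 4 and 7 were tested and 4, 3 and 3 were below 0 (medians -0.01, -0.17 and 0.19), with S100b at 274, 428, 275 and 372 CPM outside the cell cycle. Of 6 neuron genes 2, 1 and 2 were tested and none was below 0 (medians 0.60, 0.35 and 0.32), with Tubb3 at 297, 545, 531 and 426 CPM.

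Other quantities were read in the tumor cells beside the 9 genes, some of which moved with the groups. The 6 gate genes, from which the classes were built, summed to 2426, 1800, 1500 and 1788 CPM outside the cell cycle, with H19 at 1012, 560, 138 and 669. In cycling cells they summed to 2729, 1332, 1308 and 1025 CPM, with H19 at 1383, 485, 458 and 87.6. Of the 5 ependymal or choroid plexus markers, 4 had a UMI outside the cell cycle (Ccdc153 was at 0), and their sum of 15.4, 57.7, 825 and 64.2 CPM was nearly all Ttr, at 14.5, 56.6, 819 and 64.2. In cycling cells all 5 had a UMI and summed to 15.2, 79.4, 3309 and 321 CPM, with Ttr at 13.6, 79.4, 3293 and 320, so both shSELP libraries were above in either class. The 10 macrophage markers, none at 0, summed to 121, 85.3, 233 and 128 CPM, led by Lyz2. The 8 precursor markers, of which Neu4 was at 0, summed to 119, 42.4, 42.4 and 83.0 CPM, and the groups overlapped. The 6 cycling markers, none at 0, summed to 140, 149, 160 and 190 CPM outside the cell cycle, and Top2a had 23.8, 24.7, 36.1 and 77.6 CPM, both higher in both shSELP libraries. In cycling cells Klra4, an NK marker, had 2.40, 3.90, 18.7 and 134 CPM. Tumor cells of the shSELP libraries were also fewer and shallower. The part of depth, free RNA or a change in the mix of tumor cells in the levels of the 9 genes was not tested.

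By the GENCODE annotation of GRCm38, Olig2 (chr16:91225457-91228677, plus strand) and Olig1 (chr16:91269772-91271933, plus strand) lie 41094 bases apart. Sox2 (chr3:34650405-34652461, plus strand), Sox4 (chr13:28948919-28953713, minus strand), Sox11 (chr12:27334264-27342574, minus strand) and Olig1 have 1 exon, and Olig2 has 2. Sox6 spans 567925 bases (chr7:115470872-116038796, minus strand), Sox9 lies at chr11:112782224-112787760 on the plus strand and Sox10 at chr15:79154908-79165240 on the minus strand. Sox2 lies within Sox2ot on the same strand, so reads of the 2 could be mixed. Gm26735, Sox6os with Gm45025, and Gm15966 overlap Sox4, Sox6 and Olig1 on the opposite strand, and whether counting used the strand is not given in the sources used here.

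Promoters were read from RefSeq (GRCm38.p6), which held 10 entries for 5 of the 9 genes, Sox2, Sox4, Sox6, Sox11 and Olig2; Sox9, Sox10, Olig1 and Tcf4 had no entry. Shown are Sox2, Sox4 and Olig2, with both shSELP levels under both shNC levels in tumor cells outside the cell cycle, and Sox11, which passed the filter there through the shNC libraries alone, from 250 bases before the start of transcription to 50 after, in the direction of the gene. They lie at chr3:34649745-34650044 (plus strand) for Sox2, chr13:28953650-28953949 (minus strand) for Sox4, chr12:27342669-27342968 (minus strand) for Sox11 and chr16:91225300-91225599 (plus strand) for Olig2. Capitals mark the SOX motif ACAANG on either strand.
Sox2: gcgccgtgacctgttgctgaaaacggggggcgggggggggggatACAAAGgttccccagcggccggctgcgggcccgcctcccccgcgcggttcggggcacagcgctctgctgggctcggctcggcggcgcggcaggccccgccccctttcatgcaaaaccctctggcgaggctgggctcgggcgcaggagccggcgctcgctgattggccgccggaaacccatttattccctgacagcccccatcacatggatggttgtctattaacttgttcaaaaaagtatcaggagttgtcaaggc
Sox4: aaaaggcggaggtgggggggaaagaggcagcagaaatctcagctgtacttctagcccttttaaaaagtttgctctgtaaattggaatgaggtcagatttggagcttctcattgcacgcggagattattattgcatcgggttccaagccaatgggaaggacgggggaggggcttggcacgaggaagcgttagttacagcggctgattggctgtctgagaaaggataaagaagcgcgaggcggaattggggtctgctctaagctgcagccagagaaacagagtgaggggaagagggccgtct
Sox11: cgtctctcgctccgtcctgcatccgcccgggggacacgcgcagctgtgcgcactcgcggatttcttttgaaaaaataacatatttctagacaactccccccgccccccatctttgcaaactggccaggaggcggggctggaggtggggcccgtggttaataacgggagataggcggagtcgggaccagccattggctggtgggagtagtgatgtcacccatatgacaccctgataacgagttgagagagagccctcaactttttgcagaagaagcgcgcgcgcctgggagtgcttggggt
Olig2: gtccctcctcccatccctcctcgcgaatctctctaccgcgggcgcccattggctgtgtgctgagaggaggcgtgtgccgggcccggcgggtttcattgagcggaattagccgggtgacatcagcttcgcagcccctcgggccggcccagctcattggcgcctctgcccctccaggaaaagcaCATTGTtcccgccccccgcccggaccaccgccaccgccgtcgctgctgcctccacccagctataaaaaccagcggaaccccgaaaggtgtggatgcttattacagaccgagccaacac
The SOX motif was found once in Sox2 and once in Olig2, in neither of the other two, and in 41.2% of all 32851 promoters of this length. The E-box CANNTG, the motif of helix-loop-helix factors, was found 1, 1, 2 and 0 times in the order shown, did not overlap a SOX motif, and was found in 72.3% of all promoters. GC content was 66.3, 52, 58.7 and 65%. These matches are letters in a window and say nothing of binding.

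These values have limits. The 2 libraries of a group may share animals, and 33 to 44 tumor cells outside the cell cycle carry each shSELP level. On simulated data many changed genes went uncalled in those cells, so the lack of a call there does not exclude a change. The classes were rebuilt from clusters, and the cycling class is mostly shallow cells. No difference of effect between classes was tested, so a call in microglia-like cells and none in tumor cells is not a difference between them. The knockdown itself could not be read in tumor cells. Counts are RNA near the 3′ end and say nothing of protein or of activity of the factors.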

How the data were processed

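The authors aligned reads to mm10 and counted UMIs with Cell Ranger 1.3, per the submitters' processing notes, and deposited raw counts per gene and cell; columns of 4 libraries, each of 8 sequencing entries, were used. Cells under 500 genes or over 10% mitochondrial UMIs (446) were left out, and the rest clustered in Seurat 5.3.0 (R 4.3.3; 2000 variable genes without the 9 genes described, 12 components, resolution 0.8). Scrublet in scanpy 1.11.5 (Python 3.11.15, expected rate 0.05) called 76 cells (0.871%) as doublets, which were kept; leaving out the 5% highest scores was an alternative.

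Counts were summed per library and class and tested in edgeR 4.0.16 by its quasi-likelihood test, after filterByExpr and TMM scaling (2 against 2 libraries, Benjamini-Hochberg at 0.05), with DESeq2 1.42.0 as an alternative. On simulated data the tests returned the folds put in, but in tumor cells outside the cell cycle they missed the share of calls first asked for, a criterion that was replaced after this was seen. Other alternatives were cells gated one by one, thinning to 2000 UMIs, no filter, resolutions 0.4 and 1.2, a replicate block and each library left out. The amended tumor gate, the divided oligodendrocyte cluster and the deeper cycling subset were chosen after seeing the data. Figures were drawn with matplotlib 3.10.9.

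The 9 genes, the tumor gate and the lists (85 other genes: the gate genes, other Sox genes, E and Id proteins, proneural and Notch-regulated genes, other neural progenitor regulators, and oligodendrocyte, precursor, astrocyte and neuron genes) were chosen with earlier results of these data known. Named genes are the 9; of the lists, genes called in a tumor fit (at most 5 a direction) and the 3 with the highest level in tumor cells; and for each of the 9 with at least 10 CPM in tumor cells outside the cell cycle, the 3 genes most like it over classes. Which of the list genes are shown with a fold change was chosen after their values were seen.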

Additional observations from a re-analysis of the deposited data

Results flagged for a closer look

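Some genes went opposite ways in different classes, with both shSELP libraries on one side of both shNC libraries in 1 class and on the other side in another. This held for 3 of the 8 genes tested in at least 2 of 6 classes (37.5%), near the 35.6% of all 10718 genes so tested. Sox4 and Tcf4 were tested in all 6 classes, where it held for 56.0% of all 2543 genes. The pattern was thus about as frequent as over all genes. In each case the difference was not tested. Values are log2 fold changes of shSELP against shNC. For Sox4 they were -0.55 in tumor cells outside the cell cycle and -0.40 in cycling tumor cells, but 0.51 in T-like cells, 1.33 in macrophage-like cells and 1.69 in microglia-like cells. Of these 5 values that in microglia-like cells passed edgeR's test. For Olig1 they were -1.48 in macrophage-like and -1.07 in T-like cells, but 0.79 in oligodendrocyte-like cells. For Tcf4 they were -1.43 in cycling tumor cells and -0.28 in oligodendrocyte-like cells, but 0.49 in T-like and 0.16 in microglia-like cells. No value of Olig1 or Tcf4 passed edgeR's test in these classes, and again the difference was not tested.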

How the results depend on the processing

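Of 289 alternative fold changes of the 8 genes tested in tumor cells, 220 kept direction and side of the threshold, 62 passed the threshold newly and 7 reversed. These include 9 of Sox11 outside the cell cycle, all below 0 and 3 of them newly called. As Sox11 passed the filter there only through the shNC libraries, these 9 say nothing of how stable the direction is. Over all 498 fold changes computed, 373 kept both, 105 passed newly, 9 lost their call and 11 reversed. The same limit holds for the 9 among them of Olig2 in macrophage-like cells. With a library left out, the range crossed 0 outside the cell cycle for Sox10 (-0.59 to 0.0630, the latter without shSELP 1), Tcf4 (-0.54 to 0.0322, without shSELP 1) and Nfib (-0.66 to 0.11, without shSELP 1, and 0.00616 without shNC 1). In cycling cells it did so for Sox11 (-3.98 to 0.0597, without shNC 1) and Olig1 (-3.05 to 0.39, without shSELP 2). With cells gated one by one, Tcf4 (0.27), Id3 (0.15) and Nfib (0.00513) reversed outside the cell cycle, Olig1 (0.25) in cycling cells and Tcf4 (0.0578) in all tumor cells. Of 243 levels, 6 moved beyond the spread of libraries. An alternative that left a gene under the filter, such as Sox11, C1ql1 and Gpr17 outside the cell cycle without shNC 1, or a DESeq2 adjusted p that was not given, has no value here. The cause was not tested for any of these.

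Counts of genes called by edgeR moved more: 58 of 82 alternatives differed by over 1.5 times. In tumor cells outside the cell cycle the 3 called genes became 10 with DESeq2, 152 with no filter and 57 with cells gated one by one, and 0 to 119 with a library left out. In cycling cells the 40 became 115 with DESeq2, 674 with no filter, 120 after thinning, 106 without the highest Scrublet scores, 0 with cells gated one by one, 0 at resolution 1.2, and 0 to 148 with a library left out. In all tumor cells the 5 became 88, 805, 51 after thinning, 10 without the highest Scrublet scores, 66 with cells gated one by one, 3 with the gate not amended, and 5 to 1062 with a library left out. In oligodendrocyte-like cells the 0 became 14 with no filter and 0 to 49 with a library left out, and was 0 with DESeq2 and with the cluster not divided. In macrophage-like cells the 134 became 854 with no filter, 61 after thinning, and 53 to 346 with a library left out. In microglia-like cells the 27 became 53 with DESeq2, 367 with no filter, 8 after thinning, 157 without the highest Scrublet scores, and 104 to 830 with a library left out. In T-like cells the 1 became 15 with DESeq2, 242 with no filter, 24 after thinning, 2 without the highest Scrublet scores, 9 at resolution 1.2, and 58 to 431 with a library left out. The cause was not tested. Where a library is left out, the lone library of its group is assumed to vary like the others.

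The libraries of the groups share only a number, and same-numbered libraries did not deviate together (correlations of -0.00752 to 0.162 over the 7 comparisons). With the replicate block the called genes were 125 in tumor cells outside the cell cycle, 838 in cycling cells, 568 in all tumor cells, 8 in oligodendrocyte-like, 450 in microglia-like, 7 in T-like and 558 in macrophage-like cells.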
